A study of Oryctolagus cuniculus with 4 samples.

Results

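The Kruppel-like factors (KLFs) are transcription factors that bind GC-rich and CACCC-type promoter elements through zinc fingers at the end of the protein, and members differ mainly in the region that recruits activators or repressors. In the early mammalian embryo, KLF4 and KLF5 are known for their roles in the pluripotent cells and in the trophectoderm, the outer layer that contributes to the placenta. Other members are known from growth control, hormone response or the silencing of target genes. Here 10 KLF genes (KLF3, KLF4, KLF5, KLF6, KLF7, KLF9, KLF10, KLF11, KLF12 and KLF13) were looked up by gene name, accession and description among the 43603 probes of a rabbit array. Of these genes, 7 had a probe that could be named, with 19 probes in all. No probe could be named for KLF4, KLF10 and KLF13, which were not analysed here. Only 23390 of the 43603 probes could be given a symbol, so some unnamed probes could belong to these genes.

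The samples were blastocysts of the New Zealand White rabbit, aged 6 days. Parthenotes came from oocytes activated with electrical pulses, cycloheximide and 6-DMAP, so that both genome copies were maternal, and they were then placed in the oviducts of recipient does. Fertilised embryos came from inseminated does and received no such treatment. Blastocysts of both groups were flushed from the uterus. Each of the 4 arrays compared RNA of a pool of parthenotes, labelled with Cy3, with RNA of a pool of fertilised embryos, labelled with Cy5. A pool mixes several whole blastocysts, so fewer cells of a type and less RNA per cell cannot be told apart. The dyes were not swapped, and the part of a dye effect in a probe's difference cannot be told apart from the group. Values below are log2 ratios of parthenote over fertilised embryos as mean ± SD over 4 arrays, or log2 processed signals of single arrays, and p-values were adjusted over the 43595 probes tested.

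On each array, between 25805 and 26339 of 43803 spots were well above background for parthenotes and between 27508 and 27835 for fertilised embryos. Markers of the labelled tissue were present: 7 of the 8 trophectoderm genes with a probe and 3 of the 3 epiblast genes stood well above background for both groups on every array. Markers of maternal tract epithelium stood higher in parthenotes. For scale, 11.6% of all genes passed the test as higher in parthenotes and 12.3% as lower. Of 10 genes of motile ciliated cells with a probe, 6 rose and 0 fell. The summed processed signal of the list was 1129 to 3307 in parthenotes and 364 to 494 in fertilised embryos. CAPS was its brightest gene and weighed most in these sums, with mean log2 signals of 10.55 in parthenotes and 8.13 in fertilised embryos. SPAG17 and CFAP52, parts of the ciliary axoneme, were at least 2.55-fold and at least 1.47-fold higher in parthenotes. These are bounds, as fertilised embryos were not well above background on any array (CFAP52 was so on 3 arrays in parthenotes). The limma test of their processed ratios gave adjusted p of 0.015 and 0.028, and the bounds themselves were not tested. CFAP43, another axonemal protein, had a log2 ratio of 4.08 ± 1.32 (adjusted p = 0.031), with fertilised embryos well above background on 1 array. Of 6 genes of oviduct and uterus secretory epithelium, 5 rose and 0 fell, with sums of 6466 to 28425 and of 931 to 2611. The log2 ratios were 3.87 ± 0.29 for OVGP1, the oviduct glycoprotein (adjusted p = 0.0051), 2.90 ± 0.42 for PIGR, the receptor that carries immunoglobulin across epithelia (adjusted p = 0.010), and 2.75 ± 0.45 for SCGB1A1, uteroglobin (adjusted p = 0.012). FOXJ1, the master regulator of motile cilia, was not well above background in either group. These epithelial values moved with the groups in the same direction as KLF6, KLF5 and KLF12, and their part in those results was not tested.

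The probes that carry the results are 60 bases long and are given as the array lists them, 5′ to 3′. In the first set, shown because these are the probes by which KLF3, KLF6, KLF9, KLF11 and KLF12 were measured, capitals mark the letters CANACNGG, which can encode the start of the linker that joins zinc fingers.
KLF3 (A_04_P097452): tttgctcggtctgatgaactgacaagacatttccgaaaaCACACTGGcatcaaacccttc
KLF6 (A_04_P079687): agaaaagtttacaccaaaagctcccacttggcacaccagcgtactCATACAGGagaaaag
KLF9 (A_04_P075682): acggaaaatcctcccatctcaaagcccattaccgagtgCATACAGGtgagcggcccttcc
KLF11 (A_04_P037787): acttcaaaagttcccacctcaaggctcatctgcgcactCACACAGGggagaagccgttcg
KLF12 (A_04_P086402): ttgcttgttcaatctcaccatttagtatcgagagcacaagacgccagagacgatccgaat
Searched on both strands, these letters occurred in 4 of the 19 KLF probes and in 1090 of the 43603 probes of the array (2.50%). The longest run of identical bases between the brightest probe of each KLF gene and any probe not assigned to that gene or its transcripts was 12 to 15 bases for 6 genes and 21 bases for KLF11.

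The second set holds both kinds of overlap that matter below. Capitals in the KLF5 pair mark the bases that differ, and capitals in the KLF7 probes mark the bases that are not shared by all 3.
KLF5 (A_04_P000826): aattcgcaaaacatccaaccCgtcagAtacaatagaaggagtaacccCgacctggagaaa
KLF5 (A_04_P101952): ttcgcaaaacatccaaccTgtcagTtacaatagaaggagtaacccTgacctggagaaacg
KLF7 (A_04_P098384): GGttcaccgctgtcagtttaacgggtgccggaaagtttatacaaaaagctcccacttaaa
KLF7 (A_04_P098383): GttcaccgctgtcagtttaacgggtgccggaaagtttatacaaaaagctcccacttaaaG
KLF7 (A_04_P098382): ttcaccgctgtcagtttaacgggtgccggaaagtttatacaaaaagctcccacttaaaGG
The KLF5 probes overlap by 58 bases, with the substitutions C21T, A27T and C48T from A_04_P000826 to A_04_P101952, counted from 1 at the 5′ end of A_04_P000826. The KLF7 probes hold the same 58 bases and start 1 base apart.

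With each gene represented by its brightest probe, 2 of 7 KLF genes passed the test: KLF6 was higher and KLF7 was lower in parthenotes. Across all genes with a symbol, 23.9% passed (11.6% higher and 12.3% lower), so the KLF count was close to that of the array as a whole. Of the 19 probes, 4 passed, against 20.6% of all probes tested. Parthenote and fertilised signals did not overlap for 5 of the 7 genes (KLF3, KLF5, KLF6, KLF7 and KLF12), as was the case for 32.2% of all genes. For KLF7 this held for its brightest probe only, at background in parthenotes, and its other probes overlapped. Signals of the dyes can also lie apart without a measurement, as they did for a KLF12-like probe with surrogates in both channels. The median log2 ratio of the 7 genes was -0.06, and that of all genes was 0.00. The KLF median is the value of KLF9, which is at background, and its rank also rests on KLF7. In the 5 genes well above background for both groups, ratios were -0.27 (KLF3), -0.08 (KLF11), 0.43 (KLF5), 0.57 (KLF12) and 0.62 (KLF6).

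**Figure D1:**
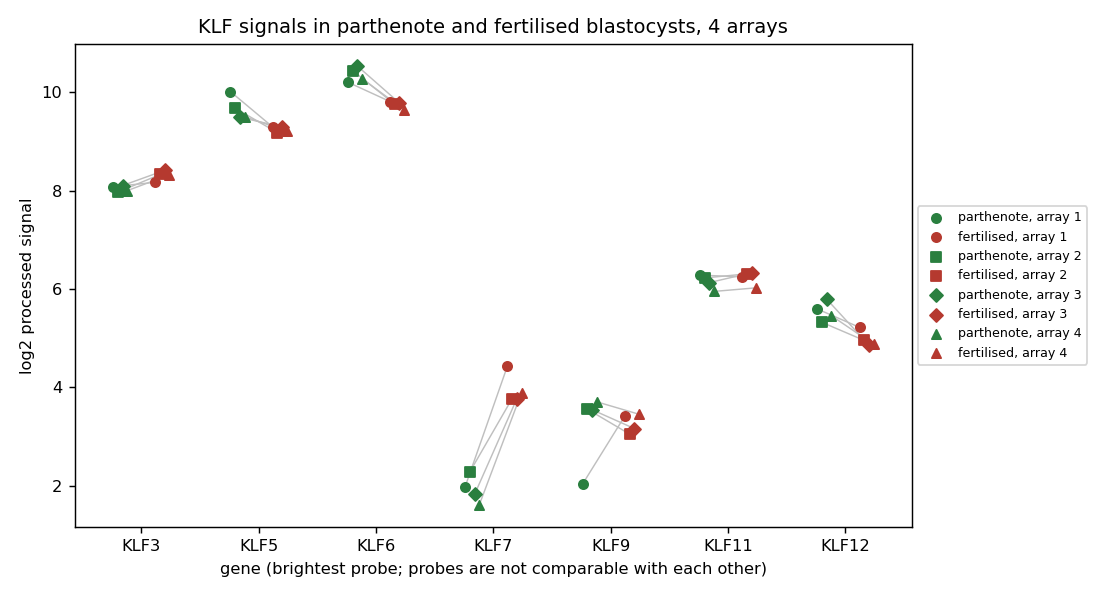
Log2 processed signal (vertical axis) of the brightest probe of 7 KLF genes (horizontal axis) in parthenote (green) and fertilised (red) pools, with lines joining the pools of 1 array and marker shapes for arrays 1 to 4. KLF6, KLF5 and KLF12 lie higher in parthenotes on all 4 arrays and KLF3 and KLF7 lie lower, while KLF11 and KLF9 overlap; heights of different probes are not comparable.

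KLF6, a widely expressed activator known for inducing the cell cycle inhibitor CDKN1A, was the KLF gene that rose. Its log2 signal was 10.21, 10.44, 10.54 and 10.28 in parthenotes on arrays 1 to 4 and 9.81, 9.76, 9.78 and 9.65 in fertilised embryos. Every parthenote pool thus lay above every fertilised pool. The log2 ratios were 0.39, 0.69, 0.75 and 0.63, a mean of 0.62 ± 0.16 (SD, n = 4) with a 95% interval of 0.40 to 0.83, or 1.53-fold (limma adjusted p = 0.022). Array 1 gave the smallest difference and array 3 the largest. The ratio kept its size but did not pass without array 2 (0.59, adjusted p = 0.096), array 3 (0.57, adjusted p = 0.081) or array 4 (0.61, adjusted p = 0.108), and it was -0.0090 (adjusted p = 0.938) when the arrays were centred on the median after background correction, without an intensity-dependent dye correction. No genome position is listed for this probe.

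KLF5, an activator required in mouse embryos for trophectoderm and early inner cell mass, was measured by 7 probes, and all of them were well above background for both groups throughout. Its brightest probe, at chr8:74498255-74498314 on the plus strand (the array file names no genome build), gave log2 signals of 10.02, 9.68, 9.50 and 9.51 in parthenotes and 9.30, 9.18, 9.30 and 9.21 in fertilised embryos. The groups did not overlap, and parthenotes varied more (SD 0.24) than fertilised embryos (SD 0.06). Log2 ratios of 0.72, 0.50, 0.20 and 0.30 averaged 0.43 ± 0.23 (SD, n = 4), with an interval of 0.11 to 0.75 and an adjusted p of 0.079, which missed the threshold.

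All 28 single ratios of KLF5 probes were above 0, from 0.10 to 0.95, and the probe means ran from 0.39 to 0.55 (adjusted p 0.078 to 0.124). In each of the 7 probes array 1 was highest, followed by arrays 2, 4 and 3. The probes overlap within 2 sets and read the same labelled RNA, so they are not replicates. Another 5 probes start at bases 416 to 420 of the transcript and span an intron, as their listed positions run from 74498338 to 74499433 for the first of them. Among the first pair, the probe with the substituted bases gave ratios that differed from those of the other by -0.10 to 0.01 on single arrays, a mean difference of -0.04 ± 0.04 (SD, n = 4). The KLF5 call depended on the setting, and the brightest probe passed under 6 of 16 alternatives. It passed when dim probes were left out, so that each probe tested was well above background for at least 1 of the groups on each array (ratio 0.43, adjusted p = 0.023). It also passed with normexp background correction and loess (0.34, adjusted p = 0.046) and with repaired backgrounds (0.36, adjusted p = 0.018). Whichever array was left out, it did not pass (adjusted p 0.121 to 0.236). Its ratio turned to -0.15 (adjusted p = 0.185) with median centring.

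**Figure D2:**
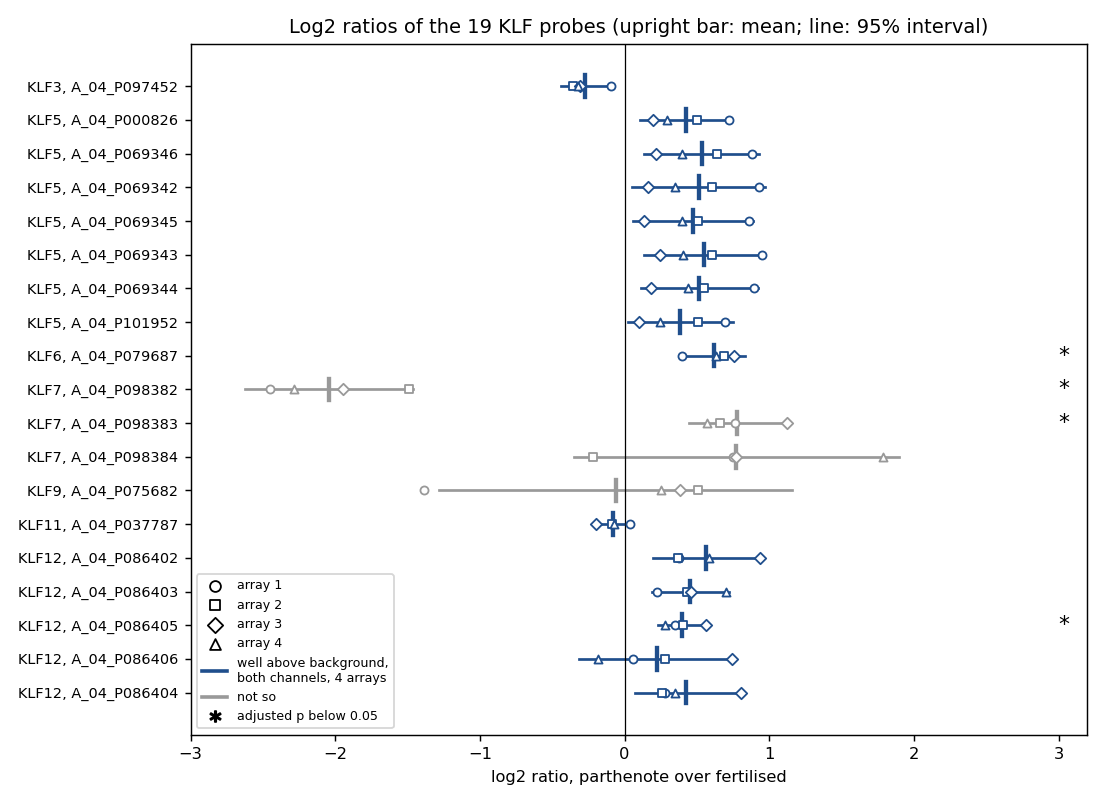
Log2 ratio of parthenote over fertilised embryos (horizontal axis) for the 19 KLF probes (vertical axis), with open markers for arrays 1 to 4, an upright bar for the mean and a line for the 95% interval; asterisks mark adjusted p below 0.05. The KLF5 and KLF6 probes lie right of 0 on every array, whereas the KLF7 probes, in grey because they were not well above background for both groups throughout, fall on both sides.

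KLF12, a repressor first known for silencing the AP-2alpha gene, was measured by 5 overlapping probes whose starts differ by at most 6 bases. The brightest spans positions 75136849 to 75202262 of chromosome 8 on the minus strand, across an intron. Its log2 signals were 5.59, 5.32, 5.79 and 5.46 in parthenotes against 5.22, 4.95, 4.86 and 4.87 in fertilised embryos, with no overlap. The log2 ratios of 0.37, 0.37, 0.94 and 0.58 averaged 0.57 ± 0.27 (SD, n = 4), with an interval of 0.20 to 0.93 and an adjusted p of 0.061.

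Of the 20 single ratios of KLF12 probes, 19 were above 0, and the exception was -0.18 for A_04_P086406 on array 4. Probe means ran from 0.23 to 0.57. One probe, A_04_P086405, passed (0.40 ± 0.12, adjusted p = 0.029), A_04_P086403 was at the threshold (0.45 ± 0.19, adjusted p = 0.05004), and the groups did not overlap for 3 of the 5 probes. The brightest probe passed under the same filter on dim probes (adjusted p = 0.014). Its ratio was smaller with normexp background correction: 0.23 with loess (adjusted p = 0.077), 0.21 with median centring (adjusted p = 0.054) and 0.24 with repaired backgrounds (adjusted p = 0.033). A gene described as KLF12-like was kept apart: both channels of its 2 probes were replaced by a surrogate on all arrays, so its deposited ratio of 0 is not a measurement.

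KLF3, a repressor that recruits the corepressor CtBP, was lower in parthenotes on each array. The probe, at chr2:28136195-28136254 on the plus strand, gave log2 signals of 8.08, 7.97, 8.11 and 8.002 in parthenotes and 8.17, 8.33, 8.42 and 8.32 in fertilised embryos. The groups did not overlap, though array 1 differed little. Log2 ratios of -0.09, -0.36, -0.31 and -0.32 averaged -0.27 ± 0.12 (SD, n = 4), with an interval of -0.44 to -0.10 and an adjusted p of 0.056. Without array 1 the mean was -0.33 and passed (adjusted p = 0.024), and so it did under the filter on dim probes (adjusted p = 0.026). It was -0.18 with normexp and loess (adjusted p = 0.066) and -0.55 with median centring (adjusted p = 1.84e-05).

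KLF11, a repressor induced by TGF-beta that recruits SIN3A, gave 6.28, 6.23, 6.13 and 5.95 in parthenotes and 6.25, 6.31, 6.33 and 6.02 in fertilised embryos, and the groups overlapped. The mean log2 ratio was -0.08 ± 0.10 (SD, n = 4; adjusted p = 0.306). The 95% interval of -0.21 to 0.05 is the narrowest of any KLF gene here. KLF11 passed under none of 16 alternative settings. These are not all separate checks: Aquantile gave the same values as normexp with loess, and the mean of probes is this same probe. No genome position is listed for this probe either.

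KLF7, a factor known from neuron development, was measured by 3 nearly identical probes on the minus strand of chromosome 7, of which the brightest lies at chr7:147932756-147932815. Their ratios opposed each other. A_04_P098382 had log2 signals of 1.98, 2.28, 1.82 and 1.61 in parthenotes and 4.43, 3.77, 3.77 and 3.89 in fertilised embryos, with a mean ratio of -2.04 ± 0.42 (SD, n = 4; adjusted p = 0.016). A_04_P098383, starting 1 base earlier, had 2.63, 3.77, 2.51 and 2.49 against 1.86, 3.11, 1.39 and 1.92, with a mean ratio of 0.78 ± 0.24 (adjusted p = 0.030) although its groups overlapped.

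The third KLF7 probe, A_04_P098384, gave 3.29, 1.92, 2.48 and 3.19 against 2.54, 2.14, 1.71 and 1.40, and its ratio of 0.77 ± 0.82 did not pass (adjusted p = 0.259). So 58 shared bases gave a pass in each direction. The signals were faint: parthenotes were not well above background on any array for any of the 3 probes, and fertilised embryos were so only for A_04_P098382, on all 4. That probe therefore gives only a bound. On signals normalised with repaired local backgrounds it was at least 1.13-fold lower in parthenotes, from measured log2 means of 6.67 and 6.90. The ratio shrank to -0.21 (adjusted p = 0.071) with normexp and loess and to -0.04 (adjusted p = 0.717) with median centring, which is smaller than that bound, and the mean over the 3 probes was -0.16 (adjusted p = 0.305). No direction can be given for KLF7 across its probes.

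**Figure D3:**
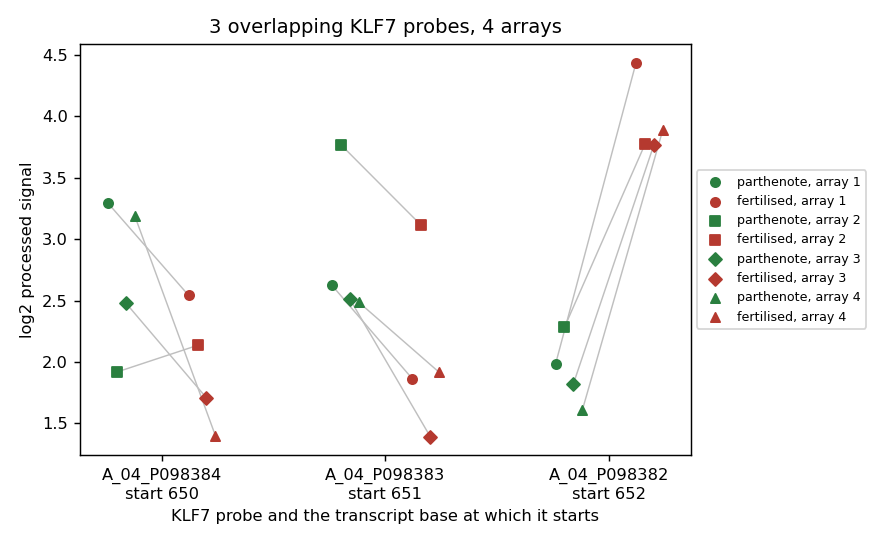
Log2 processed signal (vertical axis) of 3 KLF7 probes that start 1 base apart (horizontal axis) in parthenote (green) and fertilised (red) pools, with lines joining the pools of 1 array. The A_04_P098382 signals rise from parthenote to fertilised on all 4 arrays, those of A_04_P098383 fall on all 4, and A_04_P098384 is mixed.

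KLF9, a progesterone receptor partner in the uterus that is induced by steroid and thyroid hormone, was not well above background in either channel on any array. Its probe spans positions 56668180 to 56690696 of chromosome 1 on the minus strand. Log2 signals were 2.03, 3.56, 3.55 and 3.71 in parthenotes and 3.42, 3.05, 3.16 and 3.45 in fertilised embryos. The mean ratio was -0.06 ± 0.89 (SD, n = 4; adjusted p = 1.0), with array 1 at -1.38 and the other arrays at 0.25 to 0.51, and no fold is given for a probe at background.

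Limiting the genes to probes well above background for both groups on every array, a setting chosen after seeing the data, left 5 genes, of which KLF6 alone passed, against 29.3% of all genes so measured. With the filter on dim probes, 5 of the genes passed (KLF5, KLF6 and KLF12 higher, KLF3 and KLF7 lower), and all 7 probes of KLF5 did. KLF7 entered only through the fertilised signal of A_04_P098382. Its other probes, which gave ratios above 0, and the KLF9 probe were left out by the filter, so that call gives no direction for KLF7. Under that filter 41.4% of all genes and 42.2% of all probes passed. With median centring 2 KLF genes passed as well, but they were KLF3 and KLF9 and not KLF6 and KLF7, and 72.5% of all probes passed.

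**Figure D4:**
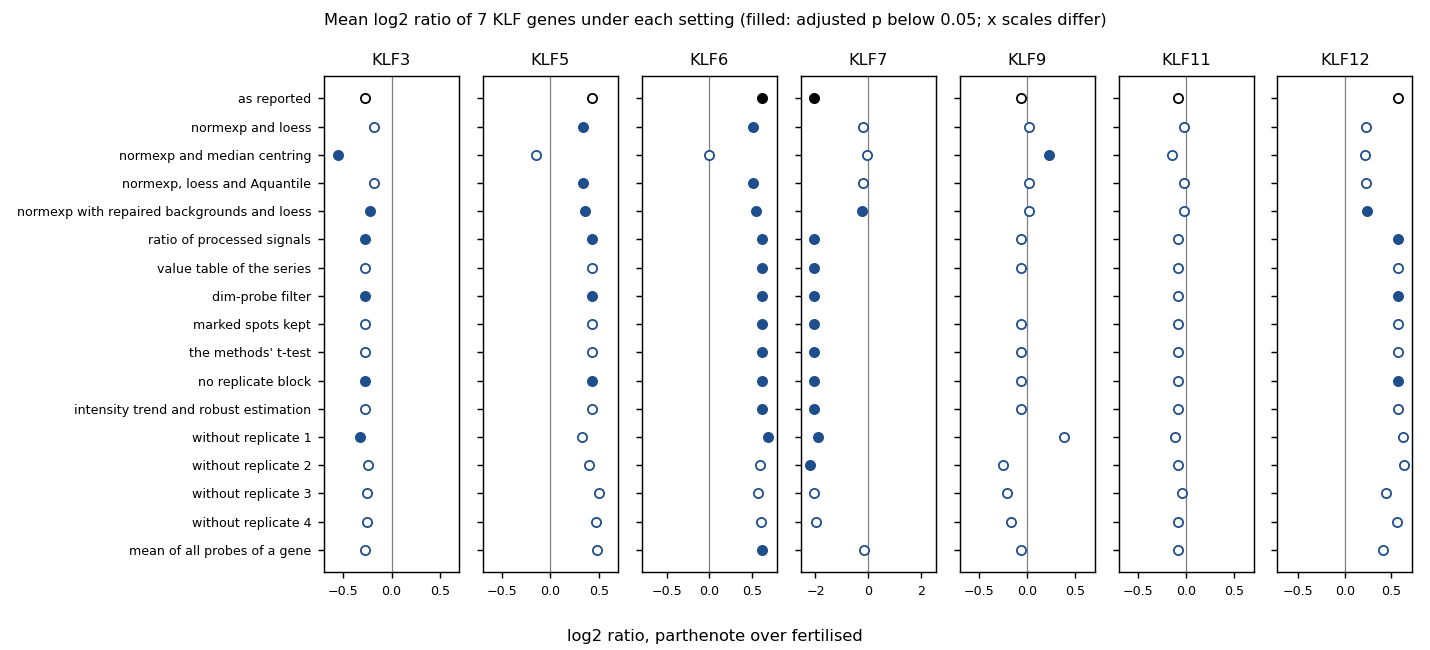
Mean log2 ratio (horizontal axes, with a scale for each gene) of 7 KLF genes under the reported and 16 alternative settings (vertical axis), filled where adjusted p was below 0.05. KLF6 lies between 0.52 and 0.69 in all settings but median centring (-0.0090), KLF11 lies between -0.15 and -0.02, and KLF7 lies near -2 or near 0 depending on how its faint signal was treated.

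By pattern over the 8 channels, the genes most like KLF6 among 6701 other named genes well above background were CCDC80 (Pearson r = 0.993), CEP170 (r = 0.993) and KBTBD3 (r = 0.992). Each was itself higher in parthenotes, at log2 ratios of 0.91, 0.63 and 0.60. The correlations hold the group difference and the shared arrays within them, and they are given as a description.

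For scale with the list counts here and below, 23.9% of all genes passed (11.6% higher and 12.3% lower). Other genes of the KLF and SP family were measured by 5 of 16 listed. SP7, a zinc finger factor of bone formation, was lower in parthenotes on each array (-0.20 ± 0.03, adjusted p = 0.013). It was the only one to pass. SP1, the ubiquitous GC-box activator that competes with KLFs, had a log2 ratio of -0.03 ± 0.18 and KLF8, a CtBP-dependent repressor, one of -0.10 ± 0.24. The values of the brightest probes were 0.22 ± 0.40 for SP4 and 0.19 ± 0.87 for KLF15. In parthenotes the SP4 probe was well above background on 3 arrays and the KLF15 probe on none. Means of their other probes lay on both sides of 0, from -0.18 to 0.18 for SP4 and from -0.30 to 0.07 for KLF15.

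Among cofactors and regulators of KLF proteins, 13 of 18 had a probe, 0 rose and 1 fell. FBXW7, the ubiquitin ligase subunit that marks KLF5 for degradation, was lower (-0.21 ± 0.09, adjusted p = 0.048). HDAC1, which KLF repressors recruit, had a ratio of 0.08 ± 0.10, and SIN3A had -0.22 ± 0.16 (adjusted p = 0.141). The list's median was 0.08.

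In the list of growth control genes that KLFs bind, 9 of 13 had a probe, 2 rose and 1 fell, with a median of 0.11. CDKN1A, the p21 inhibitor that KLF6 and KLF4 are known to induce, had log2 ratios of 1.62, 0.79, 1.44 and 1.35, a mean of 1.30 ± 0.36 (adjusted p = 0.025). CDKN1B, the p27 inhibitor, had a ratio of 0.28 ± 0.10 (adjusted p = 0.037), which turned to -0.26 (adjusted p = 0.020) with median centring. CCNE1, the cyclin that drives entry into S phase, was lower by a log2 ratio of -0.29 ± 0.04 (adjusted p = 0.011).

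Pluripotency partners of KLF4 and KLF5 were measured by 8 of 17 genes, of which 1 rose and 2 fell (median -0.15). POU5F1 (OCT4), the central pluripotency factor, had a ratio of 0.21 ± 0.03 (adjusted p = 0.012), which turned to -0.52 (adjusted p = 2.42e-05) with median centring. STAT3, which induces KLF4 downstream of LIF in mouse cells, was lower (-0.45 ± 0.17, adjusted p = 0.039), as was MYC (-0.15 ± 0.05, adjusted p = 0.039).

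Of the TGF-beta pathway, which induces KLF10 and KLF11, 10 of 13 genes had a probe, 0 rose and 2 fell, and the median was -0.19. Among all genes 12.3% fell, so this count is not far from that of the array. The receptor TGFBR1 was lower on every array, at -1.10, -1.58, -1.50 and -1.38 (mean -1.39 ± 0.21, adjusted p = 0.011). SMAD2, its intracellular signal carrier, was lower by a log2 ratio of -0.26 ± 0.08 (adjusted p = 0.029). TGFB3, TGFBR2, TGFBR3 and SMAD3 were not well above background.

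The steroid and thyroid receptor list had 12 of 13 genes with a probe, of which 1 rose and 1 fell (median 0.00). PGR, the progesterone receptor that KLF9 partners, had log2 ratios of 1.53, 2.03, 2.97 and 1.78 (mean 2.08 ± 0.63, adjusted p = 0.028), and it was well above background on all 4 arrays in parthenotes and on 1 in fertilised embryos. The size of its difference therefore rests on faint fertilised signals, and it was 0.43 (adjusted p = 0.063) with normexp and loess. PGR is also in the list of oviduct and uterus secretory epithelium above, where the same value is counted as higher. FKBP4, a chaperone of steroid receptors, was lower (-0.27 ± 0.11, adjusted p = 0.047). ESR1, ESR2 and THRB were among 6 genes not well above background in either group.

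Of the cell layers of the blastocyst, trophectoderm genes were divided: KRT8, a trophectoderm keratin, was higher (0.58 ± 0.22, adjusted p = 0.041; -0.21, adjusted p = 0.071, with median centring) and GATA2, a trophoblast factor, was lower (-0.64 ± 0.26, adjusted p = 0.045). The other 6 of 8 genes did not pass. Among 3 epiblast genes, POU5F1 counts as the gene that rose, and DNMT3B, a DNA methyltransferase of pluripotent cells, was lower (-0.25 ± 0.08, adjusted p = 0.034).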

How the data were processed

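RNA of 4 parthenote pools (Cy3) and 4 fertilised pools (Cy5), paired on 4 arrays of a single slide, was measured. The authors extracted spots with Agilent Feature Extraction 10.10.1.1 (submitters' notes). They deposited mean and background intensity values of each spot, which are not normalised, and a processed intensity, background-subtracted and dye-normalised, with a surrogate where a spot is dim. Processed Cy5 over Cy3 was deposited by the authors as a log10 ratio, and their value table holds it with the sign turned. Which pools came from which does is not given, and p-values measure the spread between these arrays.

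Here ratios were turned to log2 of parthenote over fertilised. Control spots were dropped, marked spots (26 to 48 per array) were not used, and repeated spots were averaged per probe. Probes with at least 3 arrays were tested against 0 with limma 3.58.1 in R 4.3.3, two-sided, with Benjamini-Hochberg adjustment and a threshold of 0.05. The test was checked on simulated data. Tables and figures were made with Python 3.11.15, numpy 2.4.6, pandas 2.3.3 and matplotlib 3.10.9. The number of arrays limits the precision. Channels of an array paired: deviations from the group means correlated by 0.60, 0.63, 0.62 and 0.65 within arrays 1 to 4 and by -0.21 on average with other arrays. The negative value follows from centring each group on its mean and is not separate evidence of pairing. Dim probes were included in these correlations.

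The members and lists were chosen with earlier results of these data known, and 1 gene of a list is not reported here. Named were the KLF genes, each by its probe with the highest mean signal, the genes most like those with the largest increase and decrease (for KLF7 not given, its probe being at background in parthenotes), and list genes past the threshold, at most 3 per direction. SP1, SP4, KLF8, KLF15, HDAC1, SIN3A and FOXJ1 were named after their values were seen. Symbols for 23390 of 43603 probes came from accessions, identifiers and descriptions, through RefSeq's rabbit table (mOryCun1.1). A bound compares the bright group's mean with, per array, the higher of the dim probe's signal and the lowest signal well above background. Alternatives were normexp (offset 50) with loess, median centring or Aquantile, or with repaired backgrounds, the ratio of processed signals, the value table, a filter on dim probes, marked spots kept, the methods' t-test, an unpaired fit, an intensity trend, each array left out and the mean of a gene's probes.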

Additional observations from a re-analysis of the deposited data

Results flagged for a closer look

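Of 57 sets of 4 values (the ratio and both signals of each KLF probe), 4 held an array far from the other 3, where chance flags about 1 in 20. For KLF9, array 1 lay apart in the log2 ratio (-1.38, against 0.25 to 0.51) and in the parthenote signal (2.03, against 3.55 to 3.71), both at background. The KLF7 probe A_04_P098383 had a parthenote signal of 3.77 on array 2, against 2.49 to 2.63 on the others, at background too. The KLF12 probe A_04_P086404 had a log2 ratio of 0.80 on array 3, against 0.26 to 0.35, and this probe did not pass.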

How the results depend on the processing

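KLF genes past the threshold numbered 2 as reported, 1 with the mean over each gene's probes, and 5 with repaired backgrounds, the ratio of processed signals or the filter on dim probes. Restricted to probes well above background in both channels (added after seeing the data), 1 gene passed, 1 higher and 0 lower. Genes higher in parthenotes numbered 1 as reported, 2 with normexp and loess and with Aquantile, and 3 with repaired backgrounds, processed signals or the dim filter. Genes lower numbered 1 as reported, 0 with normexp and loess, Aquantile or the mean of probes, and 2 with repaired backgrounds, processed signals or the dim filter. Where KLF7 is counted as lower, it is by its brightest probe alone, at background in parthenotes. KLF probes past the threshold numbered 4 as reported, 2 with normexp and loess, Aquantile, the methods' t-test or both channels above background, 12 with repaired backgrounds, 15 with processed signals and 14 with the dim filter, which tests fewer probes. Over the whole array 8996 probes passed (20.6%), against 31610 with median centring (72.5%), 21399 with processed signals (49.1%), 11276 of the 26724 probes of the dim filter (42.2%), 10601 with repaired backgrounds (24.3%), 6512 with normexp and loess or Aquantile (14.9%) and 4435 with the methods' t-test (10.2%).

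Leaving out 1 array gave 0 to 3 KLF genes (0 to 1 higher, 0 to 2 lower), 0 to 3 KLF probes and 1239 to 5735 probes in all; 0 KLF genes passed without array 3 or without array 4. With no replicate block, the pools taken as unpaired, 5 KLF genes (3 higher, 2 lower), 12 KLF probes and 16358 probes (37.5%) passed. With processed signals, 65.0% of the calls were higher in parthenotes, and 68.0% with no block, against 46.2% as reported.

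Directions turned for KLF5 (-0.15) and KLF6 (-0.0090) with median centring. For KLF9, which is at background, the ratio turned to 0.018 with normexp and loess and with Aquantile, and to 0.021 with repaired backgrounds. It was 0.23 with median centring, where KLF9 passed (adjusted p = 0.039). Without array 1 it was 0.38 (-0.25 to 0.38 over the arrays left out in turn). KLF3, KLF11 and KLF12 kept their directions in every setting run. So did the brightest KLF7 probe, but the other KLF7 probes, also at background, stayed above 0 in every setting run on them. Of the 26 other genes named from the lists, CDKN1B (-0.26), KRT8 (-0.21), POU5F1 (-0.52) and TAGLN (-0.024) turned with median centring, and of their 415 values under alternatives 296 kept direction and call and 115 kept direction but missed the threshold. The cause was not tested. The value table holds the reported ratios and is no check of them. Signal over background limited KLF7 and KLF9.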

Other observations

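Lists of other cells that the pools could hold gave the following values, where 11.6% of all genes were higher in parthenotes. Of 6 leukocyte genes with a probe, 3 were higher in parthenotes: CD48 (1.85 ± 0.30, adjusted p = 0.012), LCP1 (0.67 ± 0.08, adjusted p = 0.008) and ITGB2 (0.60 ± 0.11, adjusted p = 0.014). Their list's summed signal was 907 to 1080 in parthenotes and 633 to 714 in fertilised embryos, and PTPRC, the pan-leukocyte marker CD45, was not well above background. Of 9 stroma and smooth muscle genes, TAGLN was higher (0.66 ± 0.24, adjusted p = 0.038), and of 3 erythroid genes ALAS2 (1.95 ± 0.46, adjusted p = 0.020). None of the 3 primitive endoderm genes with a probe passed.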
